A study of Mus musculus with 28 samples.

Results

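The BCL2 family sets whether a cell keeps its mitochondrial outer membrane intact or opens it and dies. Pro-survival proteins (BCL2, BCL-XL, MCL1) hold the effector proteins BAX and BAK1 in check, and the BH3-only proteins (BIM, PUMA, NOXA, BID, BAD) bind the pro-survival proteins or, for some of them, engage the effectors directly. Blood cells of different lineages and stages depend on different pro-survival members, so the balance of the family is often followed when one blood cell type turns into another. The 10 genes described here are Bcl2, Bcl2l1 (encoding BCL-XL), Mcl1, Bcl2l11 (BIM), Bax, Bak1, Bbc3 (PUMA), Pmaip1 (NOXA), Bid and Bad. They were chosen by name from the deposited transcript table, where they are 10 of 55450 genes, and each was above the filter of 0.1 TPM (transcript abundance corrected for length and library size) in every library.

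The cells were C10, a mouse Pre-B line derived from HAFTL cells that carries a C/EBPαER transgene, in which the myeloid factor C/EBPα is fused to the hormone-binding part of the estrogen receptor. Adding 100 nM β-estradiol together with 10 nM IL-3 and CSF-1 converts them towards macrophages, and RNA was taken from uninduced cells (0h) and from cells at 1h, 12h and 48h, with 3 libraries per time point labelled as biological replicates. Promoter capture Hi-C, which lists the DNA fragments touched by each promoter, was made from the same time points in 2 replicates that were merged into 1 list each. All groups, 0h included, are the same line and carry the transgene, and every induced group received the hormone and both cytokines, so the parts played by hormone, cytokines and time in culture cannot be told apart.

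Levels are given as scaled TPM, the deposited TPM divided by 1 factor per library (the median ratio of its genes to their mean over all libraries), because a pair of ribosomal RNA genes took between 70.3% and 82.9% of the TPM of a library. These factors averaged 0.930, 1.47, 1.18 and 0.699 over the 0h, 1h, 12h and 48h libraries. Relative to 0h, the median of the 16415 genes tested lay at a log2 fold change of 0.59 (1h), 0.34 (12h) and -0.18 (48h) in deposited TPM, and at 0.02, 0.07 and 0.07 after scaling. The 11 Pre-B markers checked summed to 330 to 356 scaled TPM at 0h and 42.9 to 51.1 at 48h, and all of them were lower at 48h. The macrophage markers summed to 3.98 to 4.93 at 0h and 303 to 357 at 48h, with 7 of the 7 tested higher, while Adgre1 (F4/80) was too low to be tested. Granulocyte markers summed to at most 0.196 at 0h, 10.1 at 12h and 4.56 at 48h, and those of T cells, erythroid cells and fibroblasts to at most 0.0578 in any library. The part of other cell types in the results was not tested. In these bulk libraries fewer cells of a type and less RNA per cell cannot be told apart, and the p-values measure the spread between libraries.

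The promoters of the members that the results turn on are shown first, as the 250 bases before the RefSeq start site (GRCm38.p6, 5′ to 3′ on the gene's strand). Mcl1, Bcl2l11 and Bcl2 were higher at 48h, and Bcl2l1 was lower at 1h. Capitals mark matches to 6 short motifs searched on both strands, and where no letter is a capital no match was found.
Mcl1, chr3:95658471-95658720, plus strand: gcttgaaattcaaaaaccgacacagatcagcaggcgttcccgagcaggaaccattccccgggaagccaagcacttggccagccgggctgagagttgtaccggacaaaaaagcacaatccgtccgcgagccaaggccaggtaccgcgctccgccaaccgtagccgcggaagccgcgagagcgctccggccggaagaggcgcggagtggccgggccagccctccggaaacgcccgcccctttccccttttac
Bcl2l11, chr2:128125788-128126037, plus strand: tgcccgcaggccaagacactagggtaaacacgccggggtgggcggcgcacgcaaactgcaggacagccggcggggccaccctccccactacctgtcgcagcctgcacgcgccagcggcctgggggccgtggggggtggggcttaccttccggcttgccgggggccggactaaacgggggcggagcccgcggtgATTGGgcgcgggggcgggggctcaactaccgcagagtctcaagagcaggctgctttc
Bcl2, chr1:106714291-106714540, minus strand: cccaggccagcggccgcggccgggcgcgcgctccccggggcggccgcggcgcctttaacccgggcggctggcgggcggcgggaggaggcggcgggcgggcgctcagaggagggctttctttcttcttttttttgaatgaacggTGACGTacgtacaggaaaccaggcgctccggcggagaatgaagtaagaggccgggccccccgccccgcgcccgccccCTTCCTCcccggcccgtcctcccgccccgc
Bcl2l1, chr2:152831729-152831978, minus strand: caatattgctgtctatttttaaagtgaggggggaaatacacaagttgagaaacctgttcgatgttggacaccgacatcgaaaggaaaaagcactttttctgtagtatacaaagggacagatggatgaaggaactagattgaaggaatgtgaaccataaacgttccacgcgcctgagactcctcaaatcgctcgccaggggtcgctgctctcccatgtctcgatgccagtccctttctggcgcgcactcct

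The Bcl2 window held a PU.1 match (GAGGAAG, here read as CTTCCTC) 30 bases before the start site. At 107 bases before it stood TGACGT, the letters searched here for the cyclic-AMP response element and only a part of it. The Bcl2l11 window held a CCAAT box, read as ATTGG. Of the 9 members with a promoter in the table, the C/EBP letters TTGCNNAA were found only upstream of Bid, as TTCCGCAA at 90 bases before the start site. A PU.1 match was also present upstream of Bak1 and an E-box (CACGTG) upstream of Bax, while the STAT letters TTCNNNGAA were found in none. Among all 32851 promoter windows of the same length, 9.56% held the C/EBP letters, 10.6% PU.1, 7.02% STAT, 6.47% TGACGT, 6.02% the E-box and 33.8% CCAAT. No match overlapped another, and the matches describe letters in these windows and not bound sites. The share of G and C was 74.8% for Bcl2, 72.0% for Bcl2l11, 64.4% for Mcl1 and 47.6% for Bcl2l1, against a median of 52.4% over all windows.

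In the uninduced Pre-B cells the family fell into a high and a low tier. Bak1 (11.1 scaled TPM), Bcl2l1 (10.4), Mcl1 (9.92) and Bax (8.28) formed the high tier as means of 3 libraries, with Bak1, Bcl2l1 and Mcl1 overlapping each other in their libraries. The BH3-only genes formed the low tier, from 2.19 for Bid to 0.524 for Pmaip1, and Bcl2 was the lowest of the 10 at 0.283 ± 0.00855 (SD, n = 3). Among all tested genes, Mcl1 stood above 90.4% in mean level at 0h and Bcl2 above 30.1%. At 48h Mcl1 stood alone at the top with 38.3 scaled TPM, and Bcl2l1 (11.9), Bak1 (11.8) and Bcl2l11 (11.7) followed with overlapping libraries. Bcl2l11 stood above 57.6% of the tested genes at 0h and above 91.3% at 48h. Bcl2 was still the lowest at 1.07.

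**Figure D1:**
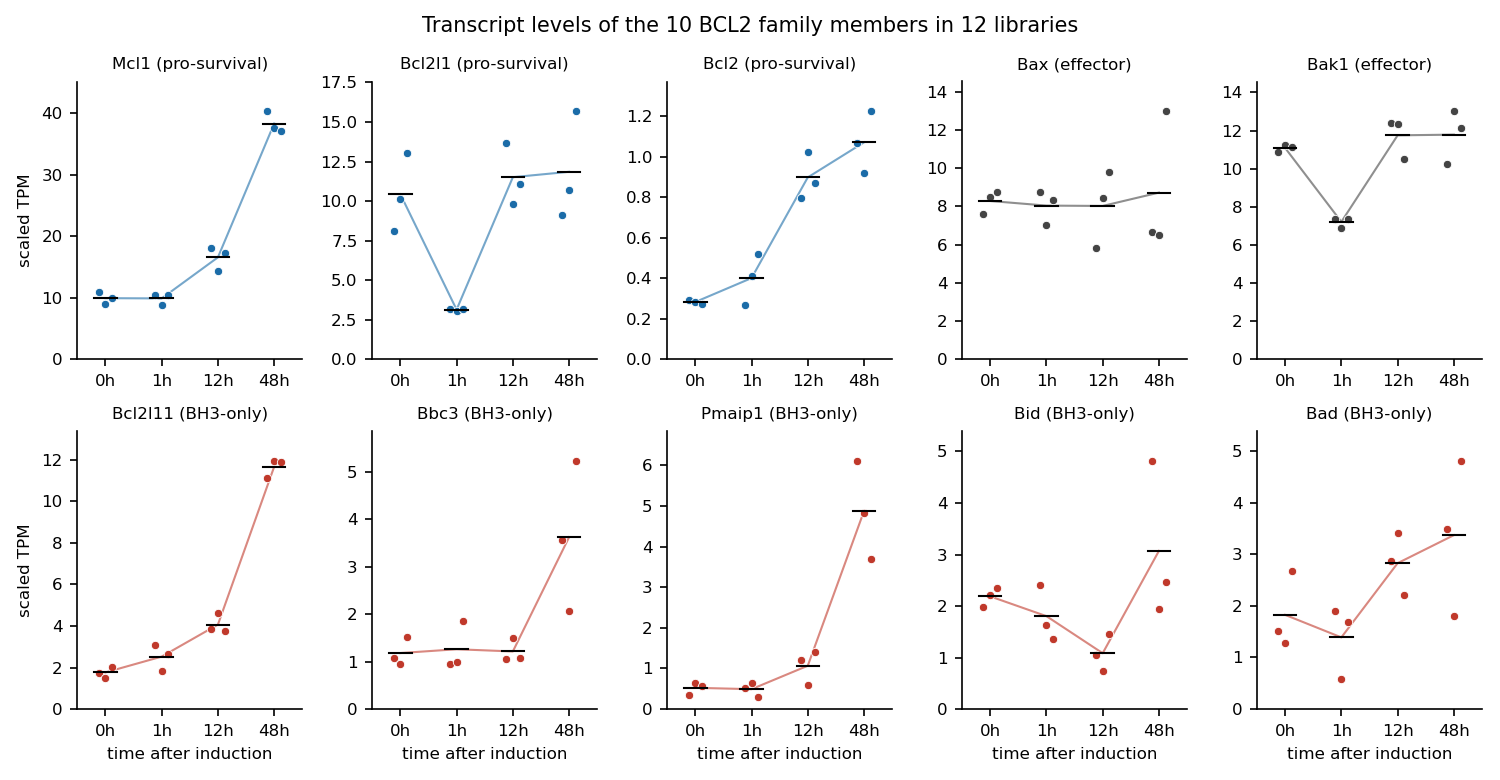
Scaled TPM (linear axis from 0, a different range in each panel) of the 10 members at each time point. Points are single libraries, black bars and the joining line are means of 3. Mcl1, Bcl2l11, Bcl2, Bbc3 and Pmaip1 end above their 0h libraries, Bcl2l1 and Bak1 dip at 1h and return, and Bax stays between 5.83 and 13.0.

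At 48h against 0h, 5 of the 10 members were higher and none lower (limma with Benjamini-Hochberg adjustment over all genes, adjusted p under 0.05), while 24.5% of all genes tested were higher and 22.0% lower. All 5 (Mcl1, Bcl2, Bcl2l11, Bbc3 and Pmaip1) had a log2 fold change above 1, which 19.6% of all genes passed. Their libraries at 48h all lay above those at 0h, as did those of 27.2% of all genes in that direction. The 5 calls were kept under every alternative run in which the gene was tested (Bcl2 is left out by a filter of 1 TPM). No member had an unadjusted p under 0.05 downwards. The median log2 fold change was 1.14 over the 10 members and 0.07 over all genes. At 12h against 0h, 3 members were higher, where 16.0% of genes were higher, and 1 was lower, where 14.5% were. At 1h against 0h, 2 members were lower, where 4.92% of genes were lower, and none was higher, where 5.42% were (1 of the 10, Bcl2l11, had an unadjusted p under 0.05 upwards). These contrasts share their 0h libraries.

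**Figure D2:**
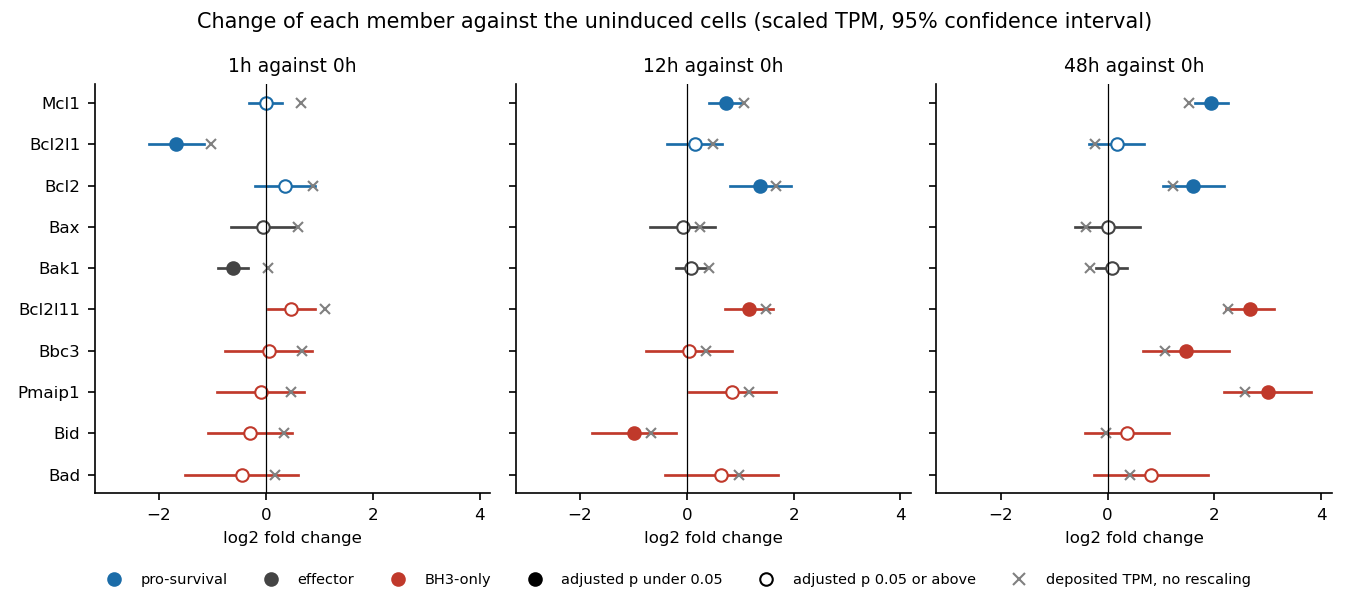
Log2 fold change of each member against 0h on the log2(scaled TPM + 0.1) scale, with 95% confidence intervals from 12 libraries and 8 residual degrees of freedom. Filled circles passed an adjusted p of 0.05 and grey crosses give the same change in deposited TPM; at 1h the crosses lie to the right of the circles and at 48h to the left.

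Among the pro-survival genes, Mcl1 rose most in amount. Mcl1 protein is short-lived, and its gene is controlled closely by cytokines in myeloid cells. The 0h libraries gave 10.9, 8.91 and 9.93 scaled TPM, those of 1h 10.4, 8.88 and 10.4, those of 12h 18.1, 14.3 and 17.3, and those of 48h 40.3, 37.6 and 37.0. The 0h and 1h libraries were intermingled, all 12h libraries lay above them and all 48h libraries were higher again. The increase was 1.66-fold at 12h (log2 0.73, SE 0.13, limma with Benjamini-Hochberg adjustment, adjusted p = 0.0017) and 3.84-fold at 48h (log2 1.94, SE 0.13, adjusted p = 4.33e-07). The step from 12h to 48h was 2.32-fold (limma, adjusted p = 6.18e-05), and in deposited TPM it was a log2 change of 0.46 with an adjusted p of 0.068. At 1h the log2 change was -0.0047 with a 95% interval of -0.31 to 0.30 in scaled TPM, but 0.65 in deposited TPM (limma, adjusted p = 0.024).

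Bcl2, the founding member and a survival factor of lymphocytes, rose from a very low level. The uninduced libraries held 0.291, 0.283 and 0.274 scaled TPM, the 1h libraries 0.270, 0.412 and 0.520, the 12h libraries 0.797, 1.02 and 0.872, and the 48h libraries 1.07, 0.920 and 1.22. The 1h libraries straddled those of 0h, and every library from 12h on lay above all of them. The increase was 2.60-fold at 12h (log2 1.38, SE 0.25, limma, adjusted p = 0.0016) and 3.04-fold at 48h (log2 1.61, SE 0.25, adjusted p = 0.00026). Between 12h and 48h the log2 difference was 0.23 with an interval of -0.34 to 0.80 (-0.45 in deposited TPM), so a further change was not resolved. An annotated antisense gene, D630008O14Rik, shares 558 exonic bases with Bcl2 and was at a mean of 0.0283 TPM.

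Bcl2l1 behaved unlike the other pro-survival genes, with a dip at the first hour. From 8.13, 10.1 and 13.0 scaled TPM in the 0h libraries it stood at 3.15, 3.07 and 3.19 in those of 1h, at 13.7, 9.79 and 11.1 in those of 12h and at 9.15, 10.7 and 15.7 in those of 48h. The 3 libraries at 1h lay close together and below each of the other 9, which overlapped between time points. The decrease at 1h was to 0.313 of the 0h level (log2 -1.68, SE 0.22, limma, adjusted p = 0.00077), and it kept its direction and call in deposited TPM (log2 -1.03, adjusted p = 0.012). From 1h to 12h Bcl2l1 rose 3.55-fold (log2 1.83, limma, adjusted p = 0.00017). At 48h the difference from 0h was 0.17 on the log2 scale, with an interval of -0.34 to 0.69 and a sign that turned in deposited TPM (-0.24).

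Within each library the shares of the 3 pro-survival transcripts do not depend on the scaling. Other pro-survival relatives are not in this sum, so the shares are not of all pro-survival transcripts. Among those left out, Bcl2a1a and Bcl2a1b stood at 11.2 and 15.2 scaled TPM at 48h, from 0.0688 and 0.210 at 0h. Mcl1 made up 48.4% ± 7.18 (SD, n = 3) of their summed TPM before induction, 73.6% ± 1.69 after 1h, 57.2% ± 1.88 after 12h and 74.9% ± 5.69 after 48h. Bcl2l1 took 50.2% ± 7.31, 23.4% ± 1.24, 39.6% ± 2.19 and 23.0% ± 5.58 at the same times, and Bcl2 between 1.38% and 3.17%. The Mcl1 share thus peaked at both 1h and 48h, and its libraries at these times (68.7% to 79.8%) lay above all those at 0h (42.7% to 56.5%) and 12h (55.5% to 59.2%). Of Mcl1 and Bcl2l1, the test in scaled TPM called Bcl2l1 at 1h and Mcl1 at 48h.

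**Figure D3:**
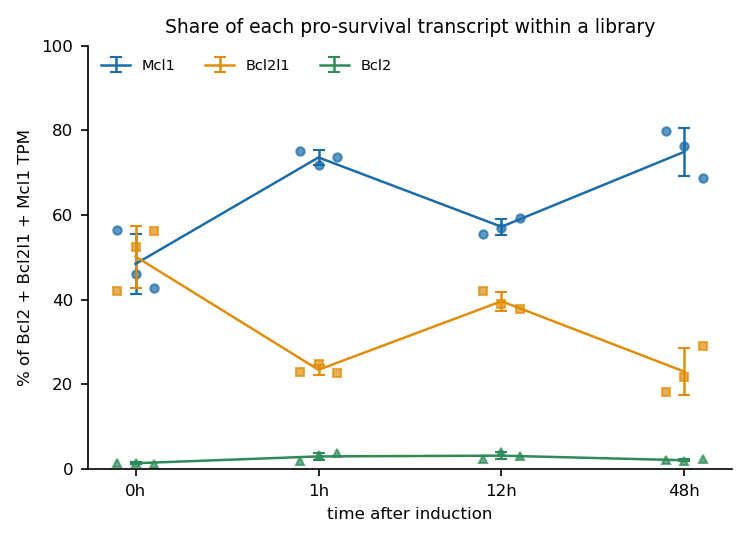
Percent of the summed TPM of Bcl2, Bcl2l1 and Mcl1 held by each gene. Other pro-survival genes are not in the sum. Points are libraries and the lines join means with SD bars (n = 3). Mcl1 and Bcl2l1 are close to equal at 0h, and Mcl1 holds 73.6% at 1h and 74.9% at 48h.

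The effector genes Bax and Bak1, whose proteins form the pores in the outer membrane, passed the test against 0h at neither 12h nor 48h. Bax was measured between 7.61 and 8.75 scaled TPM before induction, between 7.02 and 8.75 after 1h, between 5.83 and 9.82 after 12h, and between 6.51 and 13.0 after 48h, overlapping at every time. At 48h the 95% interval of its log2 difference from 0h ran from -0.61 to 0.61. The within-library log2 ratio of Bax to Bcl2, which needs no scaling, was 4.87 ± 0.15 (SD, n = 3) before induction, 4.37 ± 0.56 after 1h, 3.14 ± 0.32 after 12h and 2.96 ± 0.40 after 48h. In linear terms there were 29.3 Bax transcripts per Bcl2 transcript at 0h and 7.77 at 48h. These numbers rest on the low level of Bcl2: with a pseudocount of 1 the log2 ratio was 2.78 before induction, 3.02 after 1h and 1.97 after 48h, so that the 1h value lay above that of 0h. Gm45808, a gene annotated on the same strand, shares 192 exonic bases with Bax and was listed at 0.

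Bak1 was even among replicates, with 10.9, 11.2 and 11.2 scaled TPM in the 0h libraries, 7.37, 6.89 and 7.36 in those of 1h, 12.4, 12.4 and 10.5 in those of 12h, and 10.2, 13.0 and 12.1 in those of 48h. The 1h libraries lay below all others, and the remaining 9 overlapped. Bak1 was lower at 1h in scaled TPM (0.653 of 0h, log2 -0.61, SE 0.12, limma, adjusted p = 0.0096) but level in deposited TPM (log2 0.04, adjusted p = 0.89). Rescaled without the 20 most abundant genes it was not called either (log2 -0.45, limma, adjusted p = 0.17), so its dip rests on the scaling. It rose 1.62-fold from 1h to 12h in scaled TPM (limma, adjusted p = 0.0023), which deposited TPM did not call (adjusted p = 0.14). The Bak1 gene shares 437 exonic bases, 18.2% of its exonic length, with Ggnbp1 on the opposite strand, and the library kit does not mark strand, so reads from the shared stretch cannot be assigned.

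Bcl2l11 encodes BIM, a BH3-only protein that binds all the pro-survival members and is a main trigger of death after loss of cytokine. It climbed from 1.75, 1.51 and 2.04 scaled TPM in the 0h libraries to 3.84, 4.60 and 3.75 in those of 12h and 11.1, 11.9 and 11.9 in those of 48h, with 3.07, 1.85 and 2.65 in those of 1h. Only 1 library at 1h, replicate 2, lay within the range of 0h, and the libraries at 12h and at 48h did not overlap any earlier time. The increase was 2.24-fold at 12h (log2 1.16, SE 0.19, limma, adjusted p = 0.00093) and 6.35-fold at 48h (log2 2.67, SE 0.19, adjusted p = 6.95e-07). At 1h the log2 difference was 0.47 with an adjusted p of 0.15 (limma), which became 0.045 without replicate 2 of 1h and 0.0044 in deposited TPM. The step from 12h to 48h was 2.83-fold (limma, adjusted p = 0.00021). The step from 1h to 12h was 1.61-fold (limma, adjusted p = 0.026), and its adjusted p rose to 0.053 without replicate 1 of 12h, 0.095 without replicate 2 of 12h, 0.084 without replicate 2 of 1h and 0.24 in deposited TPM. It was also above 0.05 in a fit to only the 6 libraries compared (0.071) and when rescaled without the 20 most abundant genes (0.063).

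Mcl1 and Bcl2l11 encode a pair of proteins that bind each other, and their transcripts rose together in unequal measure. The within-library log2 ratio of Bcl2l11 to Mcl1 was -2.50 ± 0.19 (SD, n = 3) before induction, -2.0 ± 0.25 after 1h, -2.02 ± 0.34 after 12h and -1.72 ± 0.12 after 48h. There were thus 0.177 Bcl2l11 transcripts per Mcl1 transcript at 0h and 0.304 at 48h, and the 3 libraries at 48h lay above the 3 at 0h. The log2 ratio of Mcl1 to Bcl2 went from 5.13 ± 0.13 before induction to 4.21 ± 0.36 after 12h and was back at 5.17 ± 0.22 after 48h, and the 12h libraries, from 3.80 to 4.50, lay below all those at 0h and 48h. This dip was lost with a pseudocount of 1 in the ratio, where the 12h value (3.31) lay above that of 0h (3.01) and below that of 48h (3.99).

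Bbc3 and Pmaip1, the p53 target genes that encode PUMA and NOXA, passed the test where 48h was compared with 0h and with 12h. Pmaip1 gave 0.359, 0.641 and 0.572 scaled TPM in the 0h libraries, 0.520, 0.641 and 0.309 in those of 1h, 1.22, 0.584 and 1.40 in those of 12h, and 6.10, 4.84 and 3.69 in those of 48h. All 3 libraries at 48h exceeded every earlier one, and at 12h replicate 2 lay within the 0h range. The difference at 48h was 7.98-fold (log2 3.00, SE 0.35, limma, adjusted p = 3.53e-05), the largest fold of the 10 members. At 12h the log2 difference was 0.85 with an adjusted p of 0.092 (limma), and it passed without replicate 2 of 12h (log2 1.2, adjusted p = 0.027) and in deposited TPM (log2 1.16, adjusted p = 0.039). From 12h to 48h Pmaip1 rose 4.41-fold (limma, adjusted p = 0.0012).

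For Bbc3 the uninduced libraries gave 1.09, 0.945 and 1.51 scaled TPM, the 1h libraries 0.943, 0.994 and 1.85, the 12h libraries 1.05, 1.51 and 1.09, and the 48h libraries 3.57, 2.08 and 5.23. The 48h libraries were spread over more than the whole range of the earlier ones but lay above all of them. Replicate 3 of 48h was the highest here and for Bcl2, Bcl2l1, Bax and Bad, and the lowest for Mcl1 and Pmaip1. The ribosomal RNA pair took 75.7% of its TPM, against 82.9% and 82.7% in replicates 1 and 2. The increase over 0h was 2.77-fold (log2 1.47, SE 0.35, limma, adjusted p = 0.0050), and over 12h 2.69-fold (limma, adjusted p = 0.013). The adjusted p of the step from 12h rose to 0.051 without replicate 3 of 12h, 0.062 in a fit to only the 6 libraries compared and 0.13 in deposited TPM. Trp53, which encodes p53, was lower at 48h than at 0h (log2 -1.57, limma, adjusted p = 1.20e-06). Its mean was 18.7 ± 1.08 scaled TPM (SD, n = 3) at 0h and 11.1 ± 0.725 at 1h. It was 7.05 ± 0.686 at 12h, already near the 6.26 ± 0.410 at 48h. In deposited TPM the 1h difference from 0h was a log2 of -0.09 (limma, adjusted p = 0.67).

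Bid, which links death receptors to the mitochondria once caspase 8 has cut it, was lowest at 12h. The 0h libraries held 1.99, 2.22 and 2.36 scaled TPM, the 1h libraries 2.41, 1.64 and 1.36, the 12h libraries 1.06, 0.746 and 1.45, and the 48h libraries 4.81, 1.94 and 2.46. The 12h libraries lay below all those of 0h and of 48h, but replicate 1 of 48h was far above its 2 companions. The difference at 12h (0.504 of 0h, log2 -0.99, SE 0.34, limma, adjusted p = 0.047) was close to the threshold. Its adjusted p was 0.0782, 0.106 and 0.122 when 1 of the 0h libraries was left out in turn, 0.102 without replicate 1 of 12h, 0.164 without replicate 2 of 12h and 0.186 in deposited TPM. From 12h to 48h Bid rose 2.57-fold (limma, adjusted p = 0.014). This call was lost without replicate 2 of 12h (adjusted p = 0.064), in a fit to only the 6 libraries compared (0.095) and in deposited TPM (0.19). Bid shares 628 exonic bases, 17.7% of its exonic length, with Bcl2l13 on the opposite strand, a gene at a mean of 4.71 TPM that was lower at 48h, and without strand their reads cannot be told apart.

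Bad, which is held inactive by growth factor signalling through AKT, passed the test in no comparison. The 0h libraries ran from 1.28 to 2.68 scaled TPM, the 1h libraries from 0.576 to 1.90, the 12h libraries from 2.20 to 3.41 and the 48h libraries from 1.81 to 4.80. The 12h libraries lay above those of 1h, and all other pairs of time points overlapped. The log2 difference at 48h was 0.81 with an interval of -0.25 to 1.87 (limma, adjusted p = 0.18). Bad shares 524 exonic bases, 20.5% of its exonic length, with Gpr137 on the opposite strand, a gene at a mean of 1.85 TPM. Without strand, reads from the shared stretch cannot be assigned to either gene.

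From 1h to 12h, 5 members were higher (Mcl1, Bcl2, Bcl2l1, Bak1 and Bcl2l11) and none lower by the same test, where 11.3% of all genes were higher and 8.77% lower. From 12h to 48h, 5 were again higher (Mcl1, Bcl2l11, Bbc3, Pmaip1 and Bid) and none lower, where 10.5% were higher and 11.9% lower. In neither step had a member an unadjusted p under 0.05 downwards. In deposited TPM the counts were 1 and 2 higher, and Bcl2l1 (log2 -0.72, adjusted p = 0.038) and Bak1 (log2 -0.74, adjusted p = 0.0055) were then lower from 12h to 48h (limma). The later contrast shares its 12h libraries with the earlier one.

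The genes whose pattern over the 12 libraries was nearest to a member were found by the root-mean-square difference of log2 values centred on 0h, among 9330 genes with a mean of at least 1 TPM. Nearest to Mcl1 were Cyb5r3 (0.155) and Snap29 (0.172), where the median gene differed by 1.31. Litaf (0.178) and Zfp36 (0.229), the latter encoding an mRNA decay factor of macrophages, were nearest to Bcl2l11, with a median of 1.69. Ppp1r18 (0.262) and Ptpn6 (0.296), which encodes the phosphatase SHP-1, came closest to the dip of Bcl2l1, and Fnbp1 (0.148) and Gpx1 (0.149) to Bak1. Lamp2 (0.397), a lysosomal membrane protein gene, and Trim12c (0.40) were nearest to Pmaip1.

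The other genes of the death pathway were counted from lists drawn up by function, to be read against the 24.5% higher and 22.0% lower among all genes at 48h. Of the pro-survival relatives, 4 of the 5 tested were higher at 48h and none lower (median log2 fold change 5.26, against 0.07 over all genes). All tested but Bcl2l2 are Bcl2a1 copies (Bcl2a1a, Bcl2a1b, Bcl2a1c and Bcl2a1d), so this count and median are not of independent genes. Bcl2l2 rose by a log2 of 1.24 (limma, adjusted p = 0.027). In deposited TPM it was not called (log2 0.84, limma, adjusted p = 0.15), and 3 relatives were higher. Bcl2a1a and Bcl2a1b, near-identical copies that encode the NF-κB target A1 and can exchange reads, stood out. Bcl2a1a went from 0.0688 ± 0.0617 (SD, n = 3) to 11.2 ± 0.823 scaled TPM, with 1 library at 0h listed at 0 (log2 6.13, SE 0.34, limma, adjusted p = 9.41e-08). It was already at 8.25 ± 0.364 at 12h, and Bcl2a1b reached 13.7 at 12h and 15.2 at 48h. At 48h the libraries of both copies, each taken alone, overlapped those of Bcl2l1, above Bcl2 and below Mcl1. Bcl2a1d rose as well, from 0.112 to 7.45 scaled TPM (limma, adjusted p = 2.13e-05), while Bcl2a1c was not called (0.205 at 48h). The copies were not summed, so the level of all A1 transcripts together is not given. Of the other BCL2 relatives and BNIP genes, 3 of the 9 tested were higher at 48h and 3 lower (median 0.23). Bmf, a BH3-only gene, rose from 0.865 ± 0.0795 to 4.91 ± 2.99 scaled TPM (limma, adjusted p = 0.00025), and Bok, an effector relative, fell from 3.56 ± 1.5 to 0.143 ± 0.171 (limma, adjusted p = 0.00018). Bnip3l, a mitophagy receptor gene, rose 3.41-fold (limma, adjusted p = 6.83e-06).

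The proteins of the IAP genes restrain caspases or, for the NAIP group, sense bacterial proteins. Of these genes, 8 of the 9 tested were higher at 48h and 1 lower, with a median log2 fold change of 2.11. Those higher include the related genes Naip1, Naip2, Naip5 and Naip6, so this count and median are not of independent genes. In deposited TPM the number higher was 5, and Xiap, Birc2 and Birc6 were not called (limma, adjusted p = 0.23, 0.34 and 0.080). Naip2 rose from 0.810 ± 0.160 (SD, n = 3) to 11.9 ± 1.38 scaled TPM (log2 3.73, limma, adjusted p = 3.33e-08). The gene that was lower was Birc5 (survivin, a protein of dividing cells), which fell from 11.03 ± 2.03 to 0.166 ± 0.0673 (log2 -5.40, limma, adjusted p = 7.14e-09). Of the apoptosome and caspase genes, 5 of 14 were higher and 3 lower (median -0.32), where 24.5% and 22.0% of all genes were, so the number lower was near the share over all genes. The number lower was 1 when any 1 of the 0h libraries was left out, and 5 in deposited TPM. Casp6 rose 7.74-fold (limma, adjusted p = 0.0015) and Casp9, the caspase of the apoptosome, rose 3.13-fold (limma, adjusted p = 0.00020), while Dffb and Aifm1, which act on DNA in dying cells, fell (log2 -1.32 and -0.68). All 3 porin genes of the outer membrane were lower (median -1.17), Vdac1 by the most (0.397 of 0h, limma, adjusted p = 1.14e-05).

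Of the death receptor genes, 3 of the 6 tested were higher at 48h and none lower (median 0.92). Cflar, whose protein FLIP blocks caspase 8, rose from 3.90 ± 0.270 (SD, n = 3) to 17.5 ± 1.5 scaled TPM (limma, adjusted p = 4.49e-07). Fas was listed at 0 in all 0h libraries and at 1.42, 0.376 and 0.599 at 48h. Of the genes that regulate the members, 5 of the 17 tested were higher and 4 lower (median -0.08), both near the 24.5% and 22.0% of all genes, and in deposited TPM 4 were higher and 6 lower. Pim1, a cytokine-induced kinase gene whose product acts on BAD, was at 8.32 ± 0.403 scaled TPM at 0h and 4.43 ± 0.848 at 1h and rose to 34.6 ± 2.90 at 48h (4.11-fold over 0h, limma, adjusted p = 1.07e-06). Usp9x, which encodes a deubiquitinase of MCL1, rose 2.74-fold (limma, adjusted p = 0.00026), and Myc fell to 0.385 of 0h (limma, adjusted p = 1.16e-05).

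The promoter capture lists hold the contacts of the HindIII fragment that carries a gene's start sites, the bait, with other fragments scored above background at each time point. Each of the 10 members had 1 bait, which also held its annotated 5′ end, and among all 23193 genes with a bait the median number of contacts was 5 at every time point. Each list is 1 merged set without replicates, so counts are descriptions and no difference between time points was tested. The baits of Bbc3 and Bad also carry start sites of Ccdc9 and Gpr137, and that of Bak1 a start site of Ggnbp1.

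**Figure D4:**
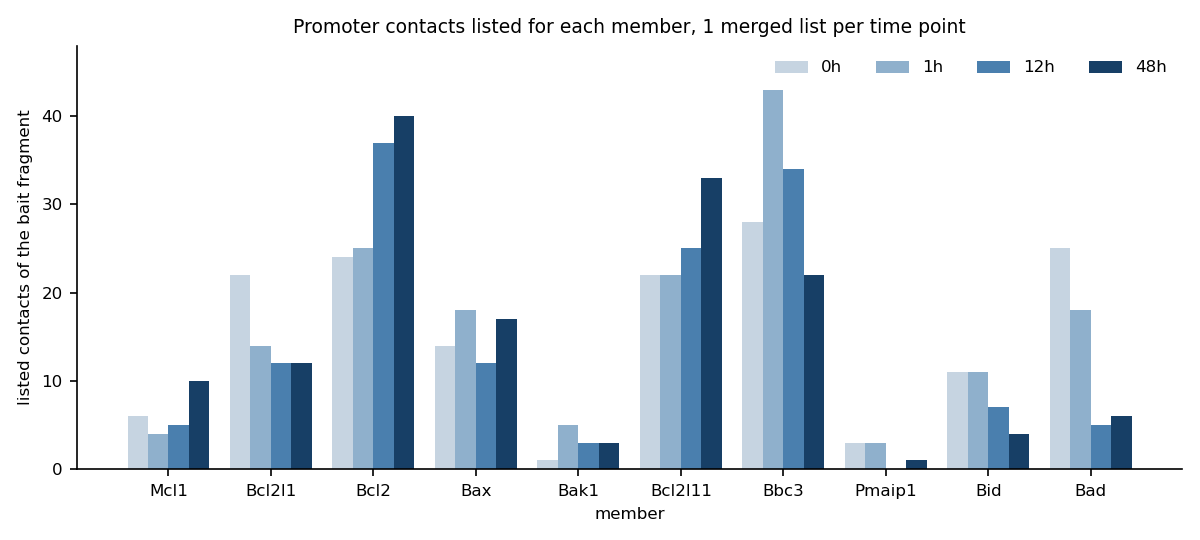
Number of listed contacts of the bait of each member at 0h, 1h, 12h and 48h (bars from 0, 1 merged list per time point, no error). Bcl2, Bcl2l11 and Mcl1 have their highest number at 48h. Bcl2l1, Bid, Bad and Pmaip1 have theirs at 0h, shared with 1h for Bid and Pmaip1, and Bax, Bak1 and Bbc3 have theirs at 1h.

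The Bcl2 promoter had 24 contacts before induction, then 25 (1h), 37 (12h) and 40 (48h), more than those of 87.9% of genes at 0h and 95.7% at 48h. A block of fragments between 158 and 201 kb downstream, near the 3′ end of the gene, which is 176 kb long, was contacted at all 4 time points, and 15 contacts in all were listed every time. The contacts listed from 12h or at 48h only lay mainly nearer the promoter, between 66.1 and 142 kb downstream and within the gene. Inside the gene there were 7 contacts in the lists of 0h and 1h, 18 in that of 12h and 24 in that of 48h. The longest contacts, at 725 and 1053 kb, were listed at 0h only. Of the 24 contacts at 0h, 19 (79.2%) were listed at 48h, where they made 47.5% of the list, against 55.9% and 53.8% over all interactions.

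The Bcl2l11 promoter had 22 contacts at 0h and at 1h, 25 at 12h and 33 at 48h. Of these, 14 were listed every time: 4 fragments from 231 to 240.1 kb upstream, on the side of Acoxl and Bub1, a pair at 210.0 and 214.3 kb downstream, and 8 from 245.5 to 279 kb downstream. The other contacts were scattered around these on either side of the gene, as far as 304 kb upstream and 294 kb downstream. Those listed only at 48h or from 12h on numbered 13 and included 4 between 194 and 221 kb downstream and a pair at 86.5 and 92.2 kb. Of the 22 contacts at 0h, 19 (86.4%) were listed at 48h.

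**Figure D5:**
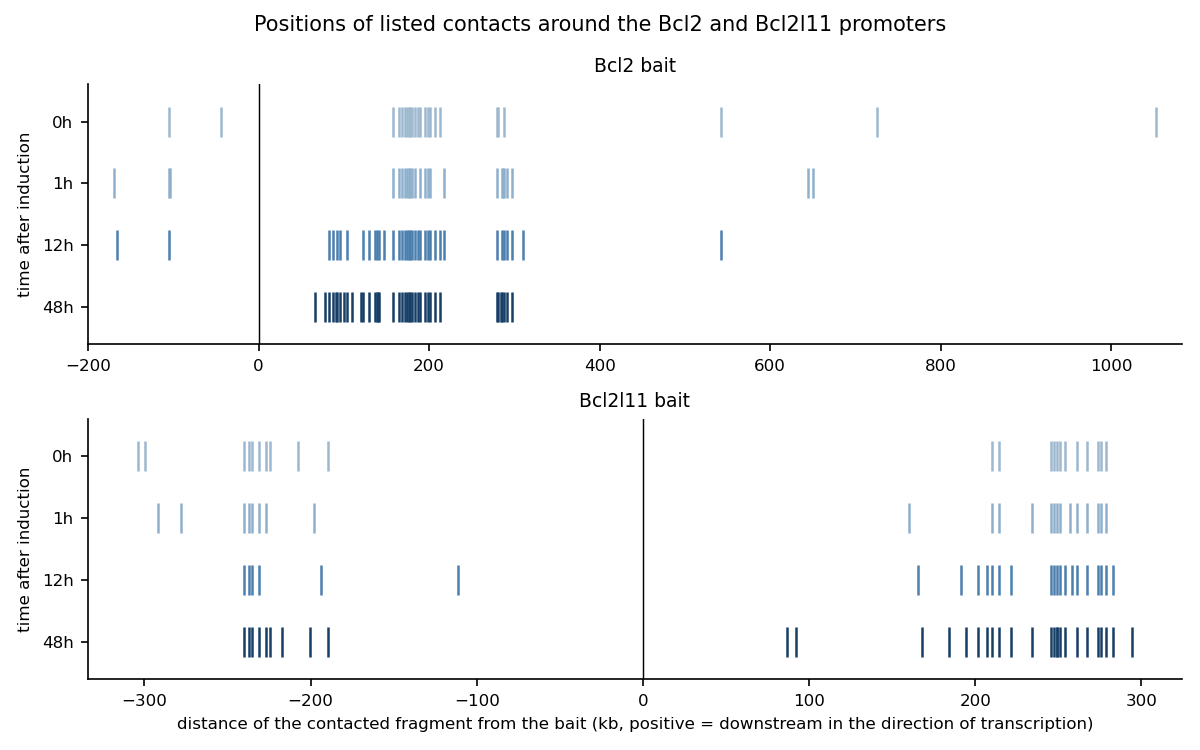
Distance in kb of each listed contact from the bait of Bcl2 (top) and Bcl2l11 (bottom), positive in the direction of transcription, with 1 row per time point and each tick a fragment. For Bcl2 the ticks between 66.1 and 142 kb appear at 12h and 48h, and for Bcl2l11 ticks from 231 to 240.1 kb upstream and from 245.5 to 279 kb downstream are present in every row.

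The Mcl1 promoter had few contacts, 6, 4, 5 and 10 in time order, and none was listed at all 4 time points. A fragment with the start site of Ctss (cathepsin S, a macrophage protease), 129 kb upstream, was listed at 0h, 12h and 48h with a pair of neighbours at 136.5 and 139.9 kb. At 48h fragments at 22.7, 25.2, 35.1, 67.3 and 145 kb upstream were listed that were in no earlier list. Bcl2l1 had 22 contacts before induction, 14 after 1h and 12 in each later list. All 12 of its contacts at 48h had been listed at 0h, and 9 were listed every time, among them fragments with start sites of Tpx2, Id1, H13 and Mcts2. The 8 contacts listed only at 0h or at 0h and 1h included those with Tm9sf4 and with Plagl2 and Pofut1, 322 and 401 kb upstream.

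The Bad bait had 25, 18, 5 and 6 contacts in time order. Most of those lost lay 414 to 610.0 kb upstream, around Nrxn2, Rasgrp2 and Men1, and 3 of the 25 (12.0%) were listed at 48h, or 6 (24.0%) when fragments within 10 kb were matched. Bid had 11, 11, 7 and 4 contacts, and the last 4 were listed every time, among them one with the start site of Usp18, 331 kb upstream. Bbc3, whose bait is 39056 bases long, had 28, 43, 34 and 22 contacts. Pmaip1 had 3, 3, 0 and 1, and Bak1 1, 5, 3 and 3, of which that with Uqcc2 was listed every time. Bax had 14, 18, 12 and 17 contacts, with 7 listed every time around Hsd17b14, Bcat2 and Sphk2.

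Set side by side, the members higher at 48h included those with more listed contacts at 48h than at 0h (Mcl1, Bcl2, Bcl2l11) and those with fewer (Bbc3, Pmaip1). Bcl2l1 had its lowest level at 1h, with 14 contacts, and a mean level within the range of the 0h libraries at 12h and 48h, with 12.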

How the data were processed

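The authors trimmed the RNA-seq reads with Trim Galore 0.6.2, aligned them with HISAT2 2.1.0 to mm10 and estimated transcript levels with RSEM, whose version is not given in the sources used here, and deposited 1 table of TPM for the 12 libraries, technical replicates having been merged. TPM keep no depth, so the depth behind a value is unknown from the table, no counting interval is given and a count test could not be run. The libraries were made with a kit that does not mark strand. The promoter capture reads were processed with HiCUP, and interactions were called with CHiCAGO. The list deposited for 0h carries a CHiCAGO score, while the whole numbers in the fifth column of the other lists have no stated unit and were not used. In every list both replicates were merged. The number of per-sample columns not used was 0.

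The members and lists were chosen with earlier results of these data known. Genes with a mean of at least 0.1 TPM (16415) entered 1 limma fit (version 3.58.1, R 4.3.3) on log2(scaled TPM + 0.1), a model of 4 time points over all 12 libraries, a trend in the prior variance and Benjamini-Hochberg adjustment over all genes, and fold changes on this scale understate those of low genes. The scaling factors were median ratios over 11246 genes. The script was tested on simulated data. All 10 members are named. From each list, up to 2 genes higher and 2 lower at 48h are named by size among those called whose libraries do not overlap. For each member with a mean TPM of at least 1, the 2 genes of nearest pattern were found. The same-numbered libraries were not paired in the main fit. Of 18 such pairs, 7 had a correlation of deviations above 0.1 (from -0.011 to 0.257), the highest between replicate 3 libraries. Contacts were assigned through GENCODE M21 start sites in bait fragments, all 10 of which began at a HindIII cut in GRCm38, and 9 of the 10 promoters were in the RefSeq table. Scripts used Python 3.11.15, pandas 2.3.3 and Matplotlib 3.10.9. Alternatives were other scalings, pseudocounts, filters, fits, call rules and contact rules, and leaving out each library. The Hi-C matrices were not used here.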

Additional observations from a re-analysis of the deposited data

How the results depend on the processing

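The deposited TPM, without scaling, moved the most results. The members higher then numbered 3 at 1h against 0h, 1 at 12h against 1h and 2 at 48h against 12h, and those lower 1, 0 (12h against 0h) and 2 (48h against 12h). The 1h log2 fold changes turned to 0.65 (Mcl1), 0.61 (Bax), 0.040 (Bak1), 0.47 (Pmaip1), 0.33 (Bid) and 0.16 (Bad), that of Bax at 12h to 0.26, those at 48h to -0.24 (Bcl2l1), -0.33 (Bak1) and -0.026 (Bid), and those of 48h against 12h to -0.45 (Bcl2), -0.72 (Bcl2l1) and -0.74 (Bak1). Rescaling without the 20 most abundant genes turned Mcl1 (0.16), Bax (0.12) and Pmaip1 (0.057) at 1h, Bax at 12h (0.044), and Bcl2l1 (-0.17) and Bak1 (-0.19) from 12h to 48h, with 1 member lower at 1h and 0 at 12h. Quantile normalization turned Mcl1 (0.14) and Bax (0.081) at 1h and Bcl2l1 (-0.14) and Bak1 (-0.16) from 12h to 48h, and a pseudocount of 1 Bax at 48h (0.0057). The member lower at 12h was lost (0) with a pseudocount of 1, no filter, no trend and a log2 fold change beyond 1. That last rule left 1 lower at 1h and 2 higher from 1h to 12h, and a fit to only the 6 libraries compared left 3 higher from 12h to 48h. Leaving out 1 library gave 0 to 1 higher at 1h and 0 to 1 lower at 12h. It gave log2 fold changes at 1h from -0.079 to 0.070 for Mcl1, -0.11 to 0.048 for Bax, -0.24 to 0.23 for Bbc3, -0.30 to 0.15 for Pmaip1 and -0.74 to 0.042 for Bad. At 12h it gave -0.012 to 0.33 for Bcl2l1, -0.24 to 0.14 for Bax and -0.11 to 0.22 for Bbc3, at 48h -0.047 to 0.34 for Bcl2l1 and -0.32 to 0.17 for Bax, and from 12h to 48h -0.20 to 0.19 for Bcl2l1 and -0.078 to 0.098 for Bak1. With a pseudocount of 1 the log2 ratio of Mcl1 to Bcl2 was 3.01, 3.30, 3.31 and 3.99 in time order, that of Bax to Bcl2 2.78, 3.02, 2.32 and 1.97, and that of Bcl2l11 to Mcl1 -1.95 (0h) and -1.74 (1h), which turned the directions of Mcl1 to Bcl2 at 1h and 12h and of Bax to Bcl2 at 1h against 0h, and with 0.1 the 0h ratios to Bcl2 were 4.68 (Mcl1) and 4.42 (Bax). A contact score of at least 10 left at 0h 10 contacts of Bcl2l1, 8 of Bcl2l11, 5 of Bcl2, 4 of Bid, 3 of Bbc3, 1 each of Mcl1 and Bad and 0 of Bax, Bak1 and Pmaip1, and matching fragments within 10 kb raised the 0h contacts also listed at 48h to 6 (Bad) and 7 (Bid). The cause was not tested where calls changed. The replicate block left the counts of members called higher at 0, 3 and 5 (1h, 12h and 48h against 0h) and those lower at 2, 1 and 0. On pairing, 7 of 18 same-numbered pairs had a correlation above 0.1 and 7 of 12 libraries correlated best with their own number. The highest were between replicate 3 libraries (0.257 for 0h and 1h, 0.252 for 0h and 48h, 0.223 for 1h and 48h). Replicate 3 also had the lowest share of the ribosomal RNA pair at each time point (76.9%, 70.3%, 72.8% and 75.7% in time order). The main fit leaves out what same-numbered libraries share, and its source was not tested. Bcl2 was not tested under a filter of 1 TPM. TPM keep no depth, so which low levels it limits is unknown.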
